A study of Mus musculus with 6 samples.

Results

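The myelin and oligodendrocyte genes of the retina were examined as a group of 9 genes, Mbp, Mobp, Mog, Mag, Cnp, Cldn11, Olig1, Olig2 and Sox10, taken by name from the 55376 genes of the deposited count table. All 9 were found in it. Each library was made from a whole retina of a different mouse at 240 days of age, 3 of them WT and 3 Wfs1-KO, and the labels give the strain of both groups as C57x129, while the methods name a C57BL/6 J background. The Wfs1-KO mice carry a targeted deletion in Wfs1, the gene for the endoplasmic reticulum protein wolframin, in all cells and not in glia alone, and neither group was treated. The comparison bears on whether myelin RNA in the retina differed between the genotypes in a mouse whose optic nerve myelin the study examined, and on how much tissue of the optic nerve the retina libraries held.

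Oligodendrocytes wrap axons of the central nervous system in myelin, a stack of membrane layers that speeds conduction and feeds the axon. The axons of mouse retinal ganglion cells are bare inside the retina and are ensheathed only behind the lamina cribrosa, where they form the optic nerve, so the mouse retina itself normally holds few or no oligodendrocytes. Of the genes examined, Mbp and Mobp encode proteins of compact myelin, Mag lies on the innermost layer facing the axon, Mog on the outermost surface, Cnp is an enzyme of the uncompacted channels, and Cldn11 forms tight junctions between the layers. Olig1, Olig2 and Sox10 are transcription factors of the lineage. Sox10 is also active in Schwann cells and melanocytes, and the Mbp gene also yields Golli transcripts in neurons and immune cells.

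In the whole-retina libraries the group fell into 3 tiers. Cnp and Mbp were well read, Mag, Mog, Cldn11 and Sox10 were present at low counts in every library, and Olig1, Mobp and Olig2 were at or next to 0. Upstream sequence is given for 1 gene of each tier, Cnp, Mog and Mobp, from RefSeq (GRCm38.p6). It is the part of the 250 bases before the RefSeq start that also lies before the GENCODE gene start. Capitals mark matches on either strand to ACAAAG, a SOX-type motif.
Cnp, chr11:100574689-100574903, plus strand: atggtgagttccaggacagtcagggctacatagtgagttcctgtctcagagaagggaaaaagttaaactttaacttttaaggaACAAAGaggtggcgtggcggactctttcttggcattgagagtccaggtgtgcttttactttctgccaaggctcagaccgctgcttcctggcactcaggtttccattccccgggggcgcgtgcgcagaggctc
Mog, chr17:37023399-37023648, minus strand: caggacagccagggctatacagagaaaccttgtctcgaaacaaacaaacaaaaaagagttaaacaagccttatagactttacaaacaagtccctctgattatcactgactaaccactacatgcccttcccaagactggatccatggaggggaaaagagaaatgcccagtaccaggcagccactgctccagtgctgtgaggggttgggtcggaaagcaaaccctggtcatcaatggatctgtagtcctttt
Mobp, chr9:120149492-120149706, plus strand: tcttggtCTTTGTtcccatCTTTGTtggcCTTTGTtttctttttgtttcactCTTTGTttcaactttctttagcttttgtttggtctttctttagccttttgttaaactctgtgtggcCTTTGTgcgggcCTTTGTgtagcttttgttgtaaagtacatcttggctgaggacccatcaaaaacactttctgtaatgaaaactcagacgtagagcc

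The Mobp window held 6 matches to ACAAAG, the Cnp window 1 and the Mog window 0. Of 32851 RefSeq windows of 250 bases, 16.5% held these letters on either strand, and 1, that of Mobp, held as many as 6. CG pairs in the 250 bases numbered 13 for Cnp, 2 for Mog and 4 for Mobp, against a median of 6 over all windows. The matches are letters in a window and were not tied to any binding measurement. RefSeq windows were read for 6 of the 9 genes, and Mobp does not stand for its tier: the Olig2 window held 0 matches to ACAAAG and 22 CG pairs. In the middle tier the Cldn11 window held 0 matches and 19 CG pairs, and the 3 Mag windows 0 or 1 matches and 2 or 3 CG pairs.

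Total counts ranged from 17916885 to 101334381 per library, so that 3 counts, used as the floor, corresponded to between 0.0296 and 0.167 CPM, the count scaled to library size. The floor covers counting error only. Wfs1, the targeted gene, had 64.9, 61.4 and 69.9 CPM in WT replicates 1, 2 and 3 and 9.63, 0.900 and 11.5 CPM in Wfs1-KO replicates 1, 2 and 3. The Wfs1-KO replicate 2 library stood apart. Its summed level of 5 blood genes was 479.9 CPM against 12.3 to 41.2 in WT and at most 22.7 in the other mutants, its 8 pigment cell genes summed to 138 CPM against 20.6 to 26.3 in WT, its 8 microglia genes to 301 CPM against 76.1 to 86.9 in WT, and its 6 genes of connective tissue sheaths to 42.5 CPM against 4.20 to 9.42 in WT. Genotype differences of the genes and lists examined are therefore given with and without that retina. The tissue label was borne out by the 10 rod genes, which summed to between 57308 and 78514 CPM in each retina.

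The order of the genes was set per exon length, as RPKM (CPM divided by exon length) over all 6 retinas. Cnp was highest at 8.90 ± 3.4 RPKM (SD, n = 6), followed by Mbp at 4.24 ± 0.66 RPKM (SD, n = 6), and the ranges of the pair did not meet, from 5.97 to 15.6 RPKM and from 3.43 to 4.89 RPKM. Their levels were higher than those of 70.4% and 58.3% of the 21782 protein-coding genes. Mag at 0.233 ± 0.080 RPKM, Mog at 0.196 ± 0.045 RPKM, Cldn11 at 0.194 ± 0.085 RPKM and Sox10 at 0.184 ± 0.079 RPKM (SD, n = 6 each) overlapped one another. The step from Mbp to Mag was 18.2-fold in RPKM and had no overlap. Olig1, Mobp and Olig2 had means between 0.0083 and 0.0115 RPKM and a highest single value of 0.0498 RPKM, and these 3 also overlapped one another. The step from Sox10 to Olig1 was 16.1-fold in mean RPKM, and the ranges of Sox10 and Olig1 did not meet. The tiers did meet at their edges. Cldn11 had 0.0486 RPKM in Wfs1-KO replicate 3, below the 0.0498 RPKM of Olig2 in WT replicate 2.

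**Figure D1:**
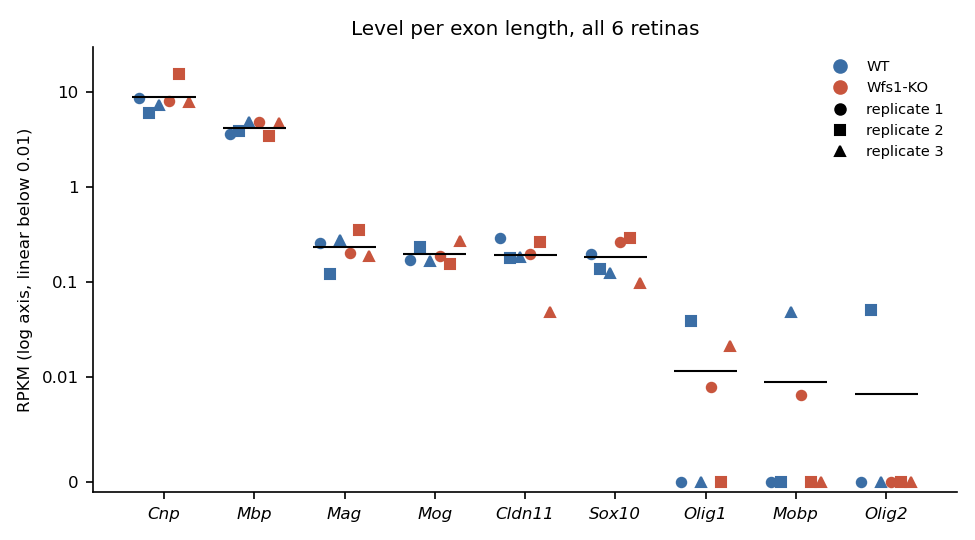
Level of each of the 9 genes per exon length (RPKM, log axis that turns linear below 0.01) in the 6 retinas, with 1 point per retina, colour for genotype, symbol for replicate number and a bar at the mean. Cnp and Mbp sit above 3 RPKM in every retina, 4 genes lie between 0.0486 and 0.349 RPKM, and Olig1, Mobp and Olig2 are at 0 in 3, 4 and 5 of the 6 retinas.

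The structural genes of compact myelin parted widely in level. Mbp, on chromosome 18 (ENSMUSG00000041607.17), had 1970, 1507 and 689 counts in WT replicates 1, 2 and 3, and 4093, 1175 and 1702 counts in Wfs1-KO replicates 1, 2 and 3. Scaled to library size these were 29.7, 31.7 and 39.1 CPM in WT and 39.7, 27.8 and 38.6 CPM in Wfs1-KO. WT replicate 3 and Wfs1-KO replicates 1 and 3 lay together near the top, the lowest value was that of Wfs1-KO replicate 2, and the genotypes overlapped. The mean was 33.5 ± 4.98 CPM in WT and 35.4 ± 6.58 CPM in Wfs1-KO (SD, n = 3 each). These spreads were larger than the counting error of 1.05 and 0.80 CPM, which takes each count as independent. The row pools 16 annotated transcripts over 8123 exon bases, so that classic myelin and Golli transcripts could not be told apart.

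Mobp (ENSMUSG00000032517.16, mm10 chromosome 9 from 120149707 to 120176091, plus strand) is a compact myelin gene that oligodendrocytes express strongly. It had 4 counts in WT replicate 3, 4 counts in Wfs1-KO replicate 1 and 0 in the other 4 retinas. The 0 counts were found in libraries of up to 65714683 counts, so that over 4688 exon bases Mobp was not detectable in 4 of 6 retinas, with no side taken by genotype. No fold was computed for it.

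The genes of the axon-facing and outer membrane layers were read in every retina at low counts. Mag (ENSMUSG00000036634.15, chromosome 7 from 30899176 to 30914832, minus strand), an adhesion protein that binds the axon surface, had 42, 14 and 12 counts in WT and 51, 36 and 20 counts in Wfs1-KO. Its levels were 0.632, 0.294 and 0.681 CPM in WT and 0.495, 0.852 and 0.454 CPM in Wfs1-KO. The highest value was that of Wfs1-KO replicate 2, the lowest that of WT replicate 2, and the groups overlapped.

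Mog (ENSMUSG00000076439.12, chromosome 17 from 37010743 to 37023398, minus strand), an immunoglobulin-type protein of the sheath surface, had 19, 19 and 5 counts in WT and 33, 11 and 20 counts in Wfs1-KO. Its levels were 0.286, 0.399 and 0.284 CPM in WT and 0.320, 0.260 and 0.454 CPM in Wfs1-KO. The values lay close together and overlapped between genotypes.

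Cnp and Cldn11 serve the channels and the junctions of the sheath. Cnp (ENSMUSG00000006782.16, chromosome 11 from 100574904 to 100581728, plus strand), a cyclic nucleotide phosphodiesterase, had 1362, 670 and 302 counts in WT and 1958, 1552 and 810 counts in Wfs1-KO. Its levels were 20.5, 14.1 and 17.1 CPM in WT and 19.0, 36.8 and 18.4 CPM in Wfs1-KO. A single retina, Wfs1-KO replicate 2, was high, at 2.06 times the mean of the other 5, while the other mutant retinas lay within the WT range. The same retina had the lowest Mbp, so that the ratio of Mbp to Cnp in CPM was 0.757 there and between 1.45 and 2.28 in the other 5. Cldn11 (ENSMUSG00000037625.7, chromosome 3 from 31149920 to 31164324, plus strand) had 36, 16 and 6 counts in WT and 38, 21 and 4 counts in Wfs1-KO, or 0.542, 0.336 and 0.341 CPM and 0.369, 0.497 and 0.0908 CPM. Wfs1-KO replicate 3 was low, and the rest of the values overlapped.

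Olig1 and Olig2, transcription factors of the lineage, were with Mobp the least read. Olig2 (ENSMUSG00000039830.9, chromosome 16 from 91225457 to 91228677, plus strand), which sets the oligodendrocyte fate, had 6 counts in WT replicate 2 and 0 in the other 5 retinas. Olig1 (ENSMUSG00000046160.6, chromosome 16 from 91269772 to 91271933, plus strand), its neighbour and partner in maturation, had 4 counts in WT replicate 2, 2 in each of Wfs1-KO replicates 1 and 3 and 0 in the remaining 3 retinas. A single WT retina therefore held the highest value of both genes. Of the Olig1 exon bases, 82 (3.79%) are shared with the antisense gene Gm15966, and no other gene of the group shares exon bases with another gene in the table.

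Sox10 (ENSMUSG00000033006.10, chromosome 15 from 79154908 to 79165240, minus strand) was read in every retina, with 36, 18 and 6 counts in WT and 76, 34 and 12 counts in Wfs1-KO. Its levels were 0.542, 0.378 and 0.341 CPM in WT and 0.738, 0.805 and 0.272 CPM in Wfs1-KO. Wfs1-KO replicates 1 and 2 were above all WT retinas and replicate 3 was below them. Melanocytes share Sox10 with oligodendrocytes, and the summed pigment cell genes were at 18.8, 138 and 17.2 CPM in Wfs1-KO replicates 1, 2 and 3, whose part in the Sox10 level was not tested.

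**Figure D2:**
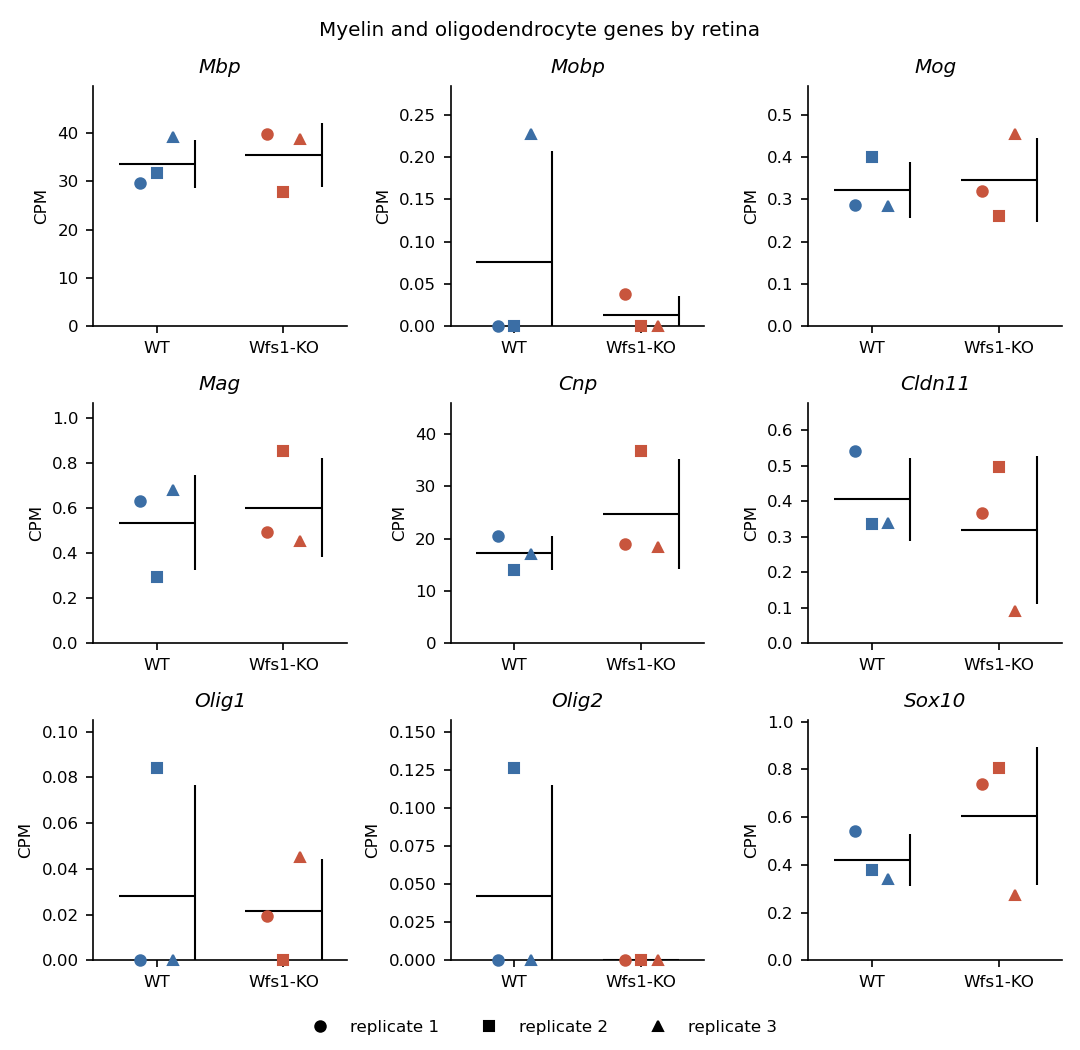
Level of each gene in CPM (linear axes from 0, a separate scale per gene) by genotype, with 1 point per retina, a horizontal line at the mean and a vertical line of 1 SD (n = 3), cut at 0. Values of the genotypes overlap for all 9 genes, and Wfs1-KO replicate 2, the square, is alone at 36.8 CPM for Cnp.

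Of the 9 genes, 6 passed the filter on low counts and 3, Mobp, Olig1 and Olig2, did not. None of the 6 was called between genotypes by edgeR's quasi-likelihood test (Benjamini-Hochberg adjusted p between 0.979 and 0.986), against 0.0108% of all 18547 tested genes. None had an unadjusted p under 0.05 with edgeR, DESeq2 or limma-voom, a level reached by 2.81% of all tested genes with edgeR, and none was called with limma-voom or with DESeq2, which called 0.28% of all genes. For none of the 6 were the genotypes free of overlap, which held for 8.96% of all tested genes, 5.01% higher and 3.94% lower in Wfs1-KO. Without Wfs1-KO replicate 2 again none was called (adjusted p between 0.968 and 0.988, edgeR's test), against 0.125% of 19178 genes, and none by DESeq2, against 0.49%. Without that retina 5.19% of all genes, but none of the 6, had an unadjusted p under 0.05 with edgeR. In bulk tissue, fewer cells of a type and less RNA per cell cannot be told apart.

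The width of the intervals differed between the genes. For Mbp the log2 fold change was 0.08 (standard error 0.21), with a 95% interval from -0.41 to 0.58, and without Wfs1-KO replicate 2 it was 0.23 (standard error 0.15), with an interval from -0.11 to 0.56. For Cnp it was 0.52 (standard error 0.32), with an interval from -0.22 to 1.26, and without that retina it was 0.11 (standard error 0.18), with an interval from -0.29 to 0.51. The Cnp difference was thus carried mainly by a single mutant retina. The 4 genes with fewer counts had wider intervals, from -1.05 to 1.21 for Mog, from -1.02 to 1.37 for Mag, from -1.90 to 1.17 for Cldn11 and from -0.75 to 1.76 for Sox10.

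**Figure D3:**
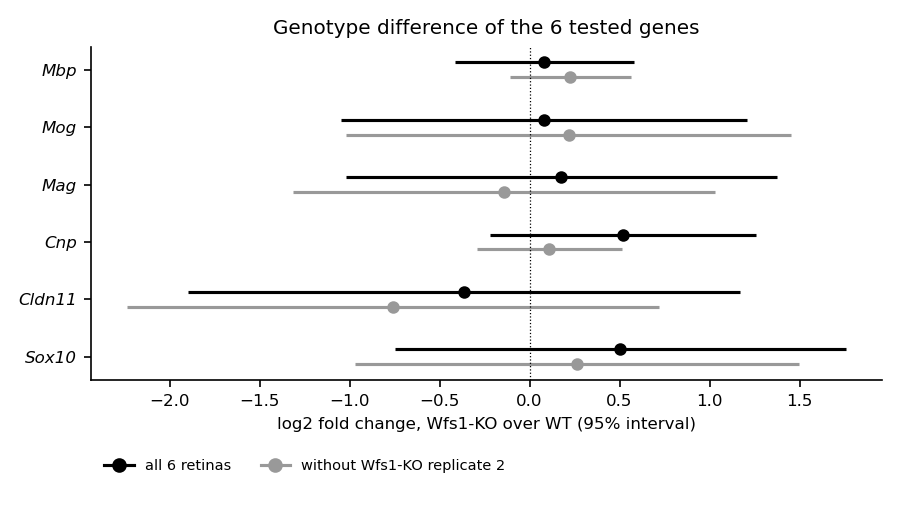
Log2 fold change of Wfs1-KO over WT for the 6 tested genes, with points for the estimate and lines for the 95% interval, in black for all 6 retinas and in grey without Wfs1-KO replicate 2. All intervals include 0, and those of Mbp and Cnp are the narrowest.

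The median log2 fold change over the 6 tested genes was 0.13, and 0.16 without Wfs1-KO replicate 2, against 0.02 and -0.0004 over all tested genes. It was 0.26 without WT replicate 3, 0.22 without Wfs1-KO replicate 1 and 0.20 without Wfs1-KO replicate 3. Summed over the 9 genes, the level was 52.2, 47.4 and 58.1 CPM in WT and 60.7, 67.0 and 58.4 CPM in Wfs1-KO. The lowest mutant sum lay just above the highest WT sum, and the log2 ratio of the group means was 0.24, or 0.18 without Wfs1-KO replicate 2. Mbp and Cnp made up between 96.2% and 97.7% of this sum in each retina, so that it said little of the rest. The other 7 genes together had 2.0, 1.62 and 1.87 CPM in WT and 1.98, 2.42 and 1.32 CPM in Wfs1-KO, with the mutant retinas on both sides of the WT range and a log2 ratio of the means of 0.06, or -0.15 without Wfs1-KO replicate 2.

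The genes did not share 1 profile over the retinas. Wfs1-KO replicate 2 was the highest retina for Cnp, Mag and Sox10 and the lowest for Mbp and Mog, while WT replicate 2 was the highest for Olig1 and Olig2. The median profile, taken over the 9 genes as log2 CPM centred on each gene's mean, was nearly flat, between -0.29 and 0.03. The 8 genes nearest to it among 15001 were Lbh, Txnrd3, Cd93, Ablim1, Gpd1l, 6330403L08Rik, Sh3bp4 and Kcna4, with root mean square differences between 0.165 and 0.169 on the log2 scale over 6 retinas. The median profile lay mostly below 0 and was not centred again. That offset is part of every difference given here and makes up most of the smallest ones. It is the same for every gene and leaves their order unchanged. Of the group itself Mbp was nearest, at 0.244, and 2814 other genes were nearer. The remaining 8 lay between 0.309 and 1.04.

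Further genes listed with the myelin sheath ranged from 36.7 RPKM, that of the receptor Gpr37, down to 0. Gpr37 had between 178 and 254 CPM in each retina, of a list sum between 248 and 303 CPM. The study names it among microglial pro-inflammatory genes upregulated in the mutant. Here its difference was 0.07 on the log2 scale (SE 0.20, adjusted p = 0.979, edgeR), and the genotypes overlapped. Without Wfs1-KO replicate 2 it was 0.22 (SE 0.13, adjusted p = 0.966, edgeR). Of 17 listed, 12 were tested, 0 rose and 0 fell (edgeR's test, 0 with an unadjusted p under 0.05; 0 called by DESeq2, with 1 at an unadjusted p under 0.05, and 0 by limma-voom), and their median log2 fold change was 0.04. Without Wfs1-KO replicate 2 the median was 0.13 and again 0 were called, with 2 at an unadjusted p under 0.05, Ermn at -1.16 (SE 0.35, adjusted p = 0.606, edgeR) and Mal at -0.67 (SE 0.29, adjusted p = 0.93, edgeR) on the log2 scale, both named after their values were seen. Among those read most per exon length were Gpr37, a receptor that restrains oligodendrocyte maturation, at 36.7 RPKM, Omg, an inhibitor of neurite growth, at 10.95 RPKM, and Tspan2, a tetraspanin, at 2.02 RPKM.

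The 5 sheath genes that were not tested included several that mark mature oligodendrocytes. Klk6 was at 0 in all 6 retinas, Gjc3 had 4 counts in all, and Tmem125 had 6 counts, all in Wfs1-KO replicate 2. Opalin, a membrane protein of oligodendrocytes, had 2, 0 and 0 counts in WT and 5, 10 and 4 counts in Wfs1-KO. Gjb1, a gap junction protein, had 8, 6 and 6 counts in WT and 10, 18 and 0 counts in Wfs1-KO. For Opalin, Gjb1 and Tmem125 the largest count was in Wfs1-KO replicate 2.

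Of the 7 enzymes of myelin lipids all were tested, and 0 rose and 0 fell by edgeR, DESeq2 or limma-voom, with 0 at an unadjusted p under 0.05 in any of them. Their median log2 fold change was 0.06, and -0.02 without Wfs1-KO replicate 2, where again 0 were called and 0 had an unadjusted p under 0.05 with edgeR. Cers2, a ceramide synthase for very long chains, was the highest at 14.9 RPKM, followed by the elongases Elovl1 at 3.81 RPKM and Elovl7 at 1.03 RPKM. Gal3st1, which makes sulfatide, had 0.506 RPKM. Their summed level was between 46.9 and 50.3 CPM in WT and between 43.8 and 48.2 CPM in Wfs1-KO.

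Of 14 genes of the lineage and its progenitors 9 were tested and 0 rose or fell (edgeR's test, with 1, Zfp536, at an unadjusted p under 0.05; 0 called by DESeq2 or limma-voom). Their median log2 fold change was -0.09, and 0.09 without Wfs1-KO replicate 2, where 0 were called and Zfp536 was again the 1 at an unadjusted p under 0.05. The highest were Lhfpl3 at 26.6 RPKM, Zfp536 and Sox8 at 8.49 RPKM each and Tnr, an extracellular matrix glycoprotein, at 7.27 RPKM. Zfp536, a zinc finger repressor, had 24.8, 27.8 and 47.2 CPM in WT and 52.7, 55.7 and 49.1 CPM in Wfs1-KO. The genotypes did not overlap, as held for 8.96% of all tested genes, with WT replicate 3 close to the lowest mutant value. The difference on the log2 scale was 0.66 (SE 0.27), which did not pass (adjusted p = 0.979, edgeR), and 0.62 without Wfs1-KO replicate 2 (SE 0.23, adjusted p = 0.813, edgeR). Of the 9 tested, 2 were higher without overlap, Zfp536 and Sox8. The 1 lower without overlap was Cspg4, named after its values were seen, at -0.88 (SE 0.42, adjusted p = 0.979, edgeR), and -0.92 without that retina. Tnr had 54.1, 96.4 and 137 CPM in WT and 109, 20.9 and 115 CPM in Wfs1-KO, with Wfs1-KO replicate 2 the lowest. The 5 genes that were not tested lay near 0, with Nkx2-2 at 0 in all retinas, Gpr17 at 10 counts in all, and Nkx6-2, Bcas1 and Enpp6 at 35, 39 and 68 counts. Of the Enpp6 counts, 32 were in Wfs1-KO replicate 2 and at most 16 in any other retina.

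Oligodendrocytes pass lactate to axons through the carrier MCT1, which needs the chaperone basigin. By proteomics of retinas taken with their optic nerves, the study reported both proteins reduced in the mutant, while the values here are RNA. Its western blots of other retinas also showed MCT1 and basigin lower, and MCT2 higher, in the mutant. It further reported less MCT1 protein in mutant brain tissue and in HeLa cells without WFS1. Of the genes listed with that route, Bsg, for basigin, had 532 RPKM, Slc16a1 60.8 RPKM, Wfs1 9.60 RPKM and Slc16a7, for MCT2, 1.03 RPKM. These are levels of the whole retina, and the cells they came from were not told apart. Single-cell data used by the study placed Wfs1 and Slc16a1 mainly in retinal glia and photoreceptors. Slc16a1, which encodes MCT1, had 270, 327 and 283 CPM in WT and 242, 259.6 and 232 CPM in Wfs1-KO. The mutant values all lay under the WT range, as held for 3.94% of all tested genes. The difference was -0.26 on the log2 scale (SE 0.16) with an interval from -0.65 to 0.12, which did not pass (adjusted p = 0.979, edgeR). Without Wfs1-KO replicate 2 it was -0.31 (SE 0.13), with an interval from -0.61 to -0.019. Its unadjusted p there was 0.039, and it again did not pass (adjusted p = 0.903, edgeR). Of the 4 genes 0 passed with edgeR on all 6 retinas, with 1, Wfs1, at an unadjusted p under 0.05. Without Wfs1-KO replicate 2, Wfs1 and Slc16a1 were the 2 at an unadjusted p under 0.05 with edgeR. Wfs1 passed with DESeq2 (adjusted p = 0.00403) and, without that retina, with edgeR (adjusted p = 2.84e-05). On the log2 scale Slc16a7 differed by 0.12 (SE 0.32) and Bsg by 0.14 (SE 0.24), with adjusted p = 0.979 for each (edgeR). Without Wfs1-KO replicate 2 these were 0.36 (SE 0.22) and -0.13 (SE 0.14), and neither passed. The median log2 fold change of the 4 genes was -0.07, and -0.22 without that retina.

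Markers of other tissues around the optic nerve head were followed beside these values. The 10 genes of peripheral myelin and Schwann cells summed to between 47.3 and 66.3 CPM in WT and between 55.4 and 61.5 CPM in Wfs1-KO. Within that sum Wfs1-KO replicate 2 was the highest retina for 2 genes, Pmp22 at 27.6 CPM and Ncmap at 5.47 CPM. It was the lowest for Drp2, at 8.86 CPM. The 6 astrocyte genes summed to between 165 and 215 CPM in WT and to 215, 274 and 192 CPM in Wfs1-KO replicates 1, 2 and 3. Of these 6, 5 were highest in Wfs1-KO replicate 2, while Aqp4, at 81.4 CPM, was lowest there. The 5 genes of the pigment epithelium summed to between 102 and 156 CPM in WT and to 83.2, 367 and 45.3 CPM in Wfs1-KO. Wfs1-KO replicate 2 was the highest retina for 2 of these 5, Ttr at 234 CPM and Rgr at 105 CPM. There Rpe65 (20.8 CPM) and Best1 (1.14 CPM) lay within the WT range, and Lrat (4.59 CPM) lay below all WT values. Lrat was lower still in Wfs1-KO replicates 1 and 3, at 2.38 and 1.91 CPM. It was not called over 6 retinas (adjusted p = 0.979, edgeR). Without Wfs1-KO replicate 2 it was called, at -1.99 on the log2 scale (SE 0.31, adjusted p = 0.0467, edgeR), as were 0.125% of all genes. The 10 ganglion cell genes summed to between 1160 and 1354 CPM in WT and to 1023, 1592 and 1131 CPM in Wfs1-KO. In Wfs1-KO replicate 2 the sums of the blood, microglia, pigment cell and connective tissue genes were thus well above all other retinas. Cnp was high with them, Mag and Sox10 were highest in that retina by a small margin, and Mbp, Mog, Mobp, Olig1 and Olig2 were not high. The part of those tissues in the Cnp level was not tested.

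**Figure D4:**
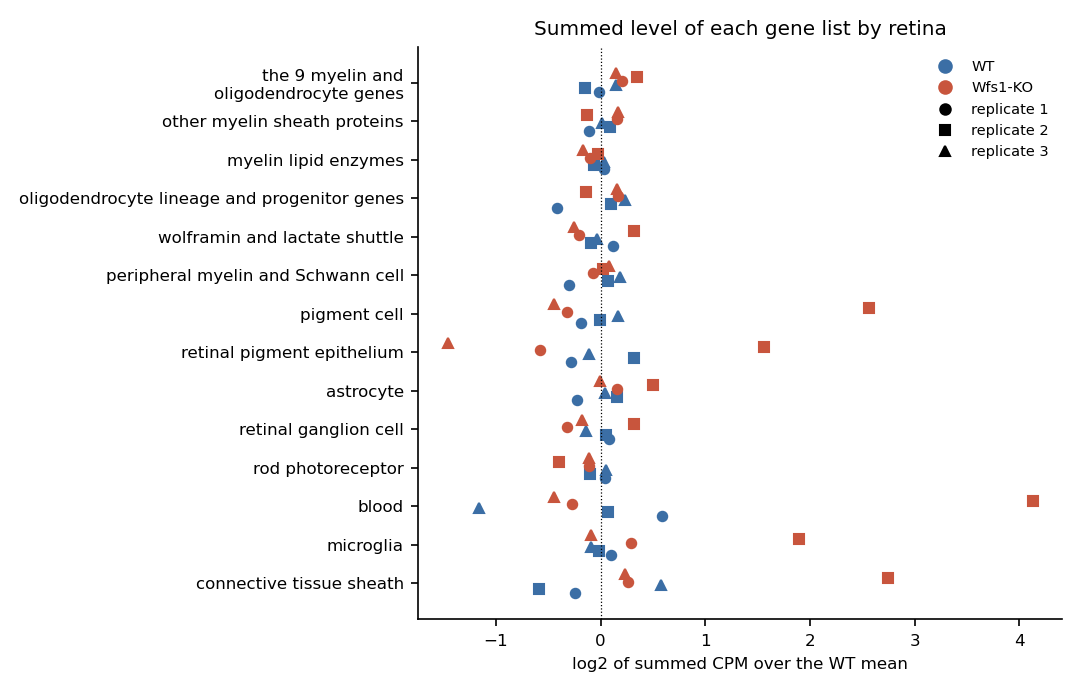
Summed CPM of each gene list in each retina, as log2 over the WT mean, with colour for genotype and symbol for replicate number. Wfs1-KO replicate 2 is far to the right for blood, connective tissue, pigment and microglia genes (479.9, 42.5, 138 and 301 CPM), while its sum of the 9 myelin and oligodendrocyte genes, 67.0 CPM, is close to the other mutant retinas.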

How the data were processed

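RNA-seq of 3 WT and 3 Wfs1-KO whole retinas was used. Per the labels, the authors trimmed reads with Trimmomatic 0.39, mapped them to mm10 with STAR 2.5.3a and counted them on exons with featureCounts 1.6.4 (the methods name other versions of the first 2 tools), and they deposited raw counts per gene without normalization. Of 8 library columns, 6 were used, matched by name: C was read as control, the methods' word for WT, and W as Wfs1. The 2 columns of samples not listed were not used.

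CPM and RPKM were computed from the counts with TMM factors and the deposited exon lengths. Genotypes were compared over all genes by the quasi-likelihood test of edgeR 4.0.16 (R 4.3.3), after filterByExpr, with no covariate and a threshold of 0.05 after Benjamini-Hochberg adjustment. Intervals use the test's standard error. The fit was tested on simulated data. DESeq2 1.42.0, limma-voom (limma 3.58.1), other scalings and filters, a replicate block and each retina left out were the alternatives. Profiles were set on log2 CPM (prior count 2) among genes of at least 1 CPM. The 9 genes and 13 further lists were chosen with earlier results of these data known. Named from the further myelin, lineage and lactate lists were the 4 genes highest in RPKM, except for a result that is not reported here. Genes named for low counts were chosen after their values were seen. Gene IDs are from GENCODE M21, promoter windows from RefSeq (GRCm38.p6).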

Additional observations from a re-analysis of the deposited data

How the results depend on the processing

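None of the 9 genes was called under any alternative, and their median log2 fold change and summed level each moved by less than the spread between replicates (SD 0.30 and 0.13 on the log2 scale). For the summed level that yardstick could show little, since leaving out 1 of 3 retinas can hardly move a group mean by more. Its log2 ratio lay between 0.17 and 0.30 with 1 retina left out. Of 81 values of a single tested gene under an alternative, 73 kept their direction and 8 changed sign, all near 0 and none past the threshold. Mog became -0.01 without WT replicate 1, -0.0034 without WT replicate 3 and -0.16 without Wfs1-KO replicate 3. Mag became -0.13 without WT replicate 2, -0.14 without Wfs1-KO replicate 2 and -0.15 with DESeq2 without that retina. Mbp became -0.0114 without Wfs1-KO replicate 1, and Cldn11 0.0588 without Wfs1-KO replicate 3. With 1 retina left out the range was -0.16 to 0.27 for Mog, -0.14 to 0.34 for Mag, -0.0114 to 0.23 for Mbp and -0.76 to 0.0588 for Cldn11. The cause was not tested. Of all genes, 2 were called as reported, 9 without a filter on low counts, 52 with DESeq2, 94 with DESeq2 without Wfs1-KO replicate 2, and between 0 and 24 with 1 retina left out, the 24 without Wfs1-KO replicate 2 and the 0 without any 1 of the WT retinas. With the replicate number as a block 1 gene was called and none of the 9. Same-numbered retinas are different mice, and their deviations from the group means correlated at -0.23, -0.11 and 0.08 across genes for replicates 1, 2 and 3, so the number did not pair them. Mobp, Olig1 and Olig2 had 3 counts or fewer in 4, 5 and 5 of the 6 libraries, and counts this low bear no fold.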

Other observations

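Low counts in the deposited table were mostly even. Of gene counts between 1 and 20, 73.8%, 77.5% and 76.0% were even in WT replicates 1, 2 and 3 and 69.0%, 74.4% and 72.0% in Wfs1-KO replicates 1, 2 and 3. In WT replicate 1, 2381 genes had 2 counts and 655 had 1 count, and in each other retina 2 counts were also more frequent than 1. Of the values above 0 for Mobp, Olig1 and Olig2, each was 2, 4 or 6 counts. How mates of a read pair were counted was not tested. The counting error and the floor of 3 counts made no allowance for counts that come in pairs.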
